A study of Mus musculus with 2 samples.

Results

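Protein kinase C (PKC) genes encode serine and threonine kinases that act below receptors, and 7 of them, Prkca, Prkcb, Prkcd, Prkce, Prkch, Prkcq and Prkcz, were followed among the 32285 genes of a droplet RNA sequencing study of mouse fetal liver. The genes were taken by symbol in both libraries, and all 7 were present. The list was chosen by family membership with the knockout over control ratios of these data already known, so the values of that contrast are given as descriptions. The cells were E14.5 fetal liver cells of C57BL/6 mice, selected as lineage-negative and Kit-positive, which keeps blood stem and progenitor cells and early erythroid cells. The knockout library carried CD45.2(+) Vav1-iCre Brd9fl/fl, in which a recombinase driven in blood cells acts on floxed alleles of Brd9, which encodes a bromodomain protein of the non-canonical BAF complex, a chromatin remodeller. The control library was CD45.2(+) Brd9fl/fl, with the same floxed alleles and no recombinase. No library held the recombinase without floxed Brd9, so the recombinase and loss of Brd9 cannot be told apart. The sources used here do not give the number of embryos per library. With 1 library per genotype no difference has a replicate check, no p-value is given, and the 95% intervals cover counting error only.

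PKC isoforms fall into groups by what activates them. The conventional isoforms, alpha (Prkca) and beta (Prkcb), need calcium and diacylglycerol, the lipid that phospholipase C makes below activated receptors. A second group, delta (Prkcd), epsilon (Prkce), eta (Prkch) and theta (Prkcq), needs diacylglycerol without calcium, and the atypical zeta isoform (Prkcz) needs neither. In blood, PKC is known for platelet activation, mast cell degranulation, the neutrophil oxidative burst and antigen receptor signalling.

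After filtering, 6755 knockout and 6856 control cells were analysed, from libraries of 271350214 and 292972312 deposited UMIs (unique molecular identifiers, which count captured molecules). The median depth of the cells, 36007 UMIs in knockout and 38485.5 in control cells before 6 hepatocyte-like cells were removed, was similar. The libraries shared 16 cell barcodes. Brd9 stood at 7.06 CPM (UMIs scaled to a total of 1e+06 over the summed cells) in the knockout against 27.2 CPM in the control, a log2 ratio of -1.95 (-2.02 to -1.87), and was lower in each of the 5 cell classes compared. The drop differed between classes, from -2.14 (-2.40 to -1.89) in megakaryocyte-erythroid progenitors to -1.25 (-1.57 to -0.94) in stem and multipotent progenitors. Because 3′ tags can come from outside the deleted exons, the UMIs left in the knockout are no measure of intact Brd9 mRNA. Kit, the receptor used for selection, was at 63.8 and 67.0 CPM. Female cells made up 58.9% of the knockout and 23.0% of the control library. Clusters were rebuilt from the counts and named from marker genes, so each name means cells that resemble that type. The classes compared were erythroid cells (4381 knockout and 4503 control), megakaryocyte-erythroid progenitors (MEP, 1025 and 754), stem and multipotent progenitors (HSC/MPP, 431 and 496), granulocyte-monocyte progenitors (GMP, 410 and 619) and mast and basophil cells (274 and 187). Levels are also given for the megakaryocyte cluster (89 and 67 cells), the neutrophil cluster (26 and 73) and cluster 13 (119 and 157). Cluster 13 was led by Id3, Nrp1 and Ebf1 and had more lymphoid than monocyte markers among its top 10 genes. Its 10 monocyte and dendritic markers summed to 1220 and 1522 CPM, against 492 and 545 CPM for the 9 lymphoid-primed markers. Each of these 3 clusters held under 150 cells in a library and was outside the comparison of genotypes, cluster 13 also for its markers.

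Prkca and Prkcq, the members with the highest knockout over control ratios over the whole libraries, lie on different chromosomes, and the windows before their RefSeq starts are shown for that reason. Prkca (ENSMUSG00000050965) spans chr11:107933387-108343928 on the minus strand and Prkcq (ENSMUSG00000026778) chr2:11172108-11301222 on the plus strand, in mm10 coordinates of GENCODE M21. The 250 bases before the RefSeq start are printed 5′ to 3′ from GRCm38.p6, with CG dinucleotides in capitals, for chr11:108343889-108344138 (minus strand) and chr2:11172132-11172381 (plus strand).
Prkca: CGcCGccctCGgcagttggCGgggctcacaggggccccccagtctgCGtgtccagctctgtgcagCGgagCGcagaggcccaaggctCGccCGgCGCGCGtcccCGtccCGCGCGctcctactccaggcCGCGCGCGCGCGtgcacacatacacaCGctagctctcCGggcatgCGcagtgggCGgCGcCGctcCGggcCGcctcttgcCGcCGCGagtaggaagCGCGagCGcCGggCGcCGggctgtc
Prkcq: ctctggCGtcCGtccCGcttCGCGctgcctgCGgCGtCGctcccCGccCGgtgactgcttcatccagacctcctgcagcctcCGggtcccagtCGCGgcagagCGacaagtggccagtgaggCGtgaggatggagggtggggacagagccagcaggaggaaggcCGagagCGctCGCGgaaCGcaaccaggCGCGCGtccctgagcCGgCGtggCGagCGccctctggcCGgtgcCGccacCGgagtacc
RefSeq and GENCODE M21 place these starts differently. The Prkcq window lies wholly inside the GENCODE span of the gene, and 40 of the 250 bases of the Prkca window lie inside that of Prkca.
The Prkca window held 39 CG dinucleotides and a GC content of 76.8%, and 1.56% of the 32851 RefSeq windows of this length held as many. The Prkcq window held 30 CG dinucleotides and a GC content of 72.4%, and 5.94% of windows held as many. The median window held 6 CG dinucleotides and a GC content of 52.4%. Of the letters searched on both strands, GATAA, the core bound by GATA factors, was in neither window, although 22.6% of all windows held it. TGACAG was in neither window and in 15.9% of all windows, while CACCC, the core bound by Krüppel-like factors, had 1 match in the Prkcq window, 0 in the Prkca window and at least 1 in 52.0% of all windows. A match is only a run of letters, and its absence says nothing of the factor outside this window. RefSeq windows matched 5 of the 7 members by symbol, all but Prkce and Prkch. The window of Prkcb held 17 CG dinucleotides, the first of Prkcd 18 and the first of Prkcz 25. In the same annotation Prkcb (ENSMUSG00000052889) spans chr7:122288751-122634402 and Prkcd (ENSMUSG00000021948) chr14:30595354-30626210. Prkce (ENSMUSG00000045038) spans chr17:86167785-86657919, Prkch (ENSMUSG00000021108) chr12:73584796-73778185 and Prkcz (ENSMUSG00000029053) chr4:155260129-155361361.

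Of the conventional isoforms, Prkca was higher in the knockout library in each compared class, though in HSC/MPP the size depended on the clustering. Over the whole libraries it stood at 58.8 CPM (57.9 to 59.8) in the knockout against 34.3 CPM (33.6 to 35.0) in the control, a 1.72-fold higher level and a log2 ratio of 0.78 (0.74 to 0.82). It ranked 15 from the highest among the 9020 genes with a mean of at least 5 CPM. A gene is called here when its log2 ratio passes 0.5 in either direction with that mean level. Of the 7 members, 5 reached the level, and 2 of them, Prkca and Prkcq, were called higher and 0 lower, where 0.82% of all tested genes were called higher and 1.45% lower. The list was proposed with this contrast known, so nothing is read from the count. After thinning each cell to 18517 UMIs, which left out 367 knockout and 314 control shallower cells, Prkca UMIs were found in 43.8% of the knockout's cells and in 30.2% of the control's. Without thinning the shares were 60.3% and 45.9%. UMIs of the hepatocyte gene Alb, taken as free RNA, were present in 1.002% of knockout and 1.02% of control thinned cells. Hbb-bt, a beta-globin gene of erythroid cells, was found more widely outside them. Its UMIs were in 19.1% of knockout and 52.1% of control thinned GMP, and in 19.9% and 52.4% of mast and basophil cells. Over the whole libraries it was at 293 and 1126 CPM. The Alb shares are therefore no measure of free RNA for all genes.

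Prkca was graded across cell types, with its highest level in megakaryocytes. In the megakaryocyte cluster it reached 1095 CPM (1055 to 1137) in the knockout against 819 CPM (780 to 859) in the control. Mast and basophil cells followed at 250 and 154 CPM, HSC/MPP at 123 and 78.0 CPM, MEP at 93.0 and 58.7 CPM, GMP at 50.1 and 34.8 CPM and erythroid cells at 27.3 and 15.9 CPM. The order of the 5 compared classes was the same in both libraries, and the counting intervals of neighbours in it did not overlap. Mast and basophil cells stood 9.15-fold above erythroid cells in the knockout and 9.70-fold in the control. The megakaryocyte cluster held 1.32% of knockout cells and 18.3% of that library's Prkca UMIs, against 0.977% of cells and 17.9% of UMIs in the control. Without that cluster the whole-library ratio was 0.78. The 9 megakaryocyte markers summed to 101 CPM over the knockout and 76.7 CPM over the control library, with 7 higher and 2 lower in the knockout.

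**Figure D1:**
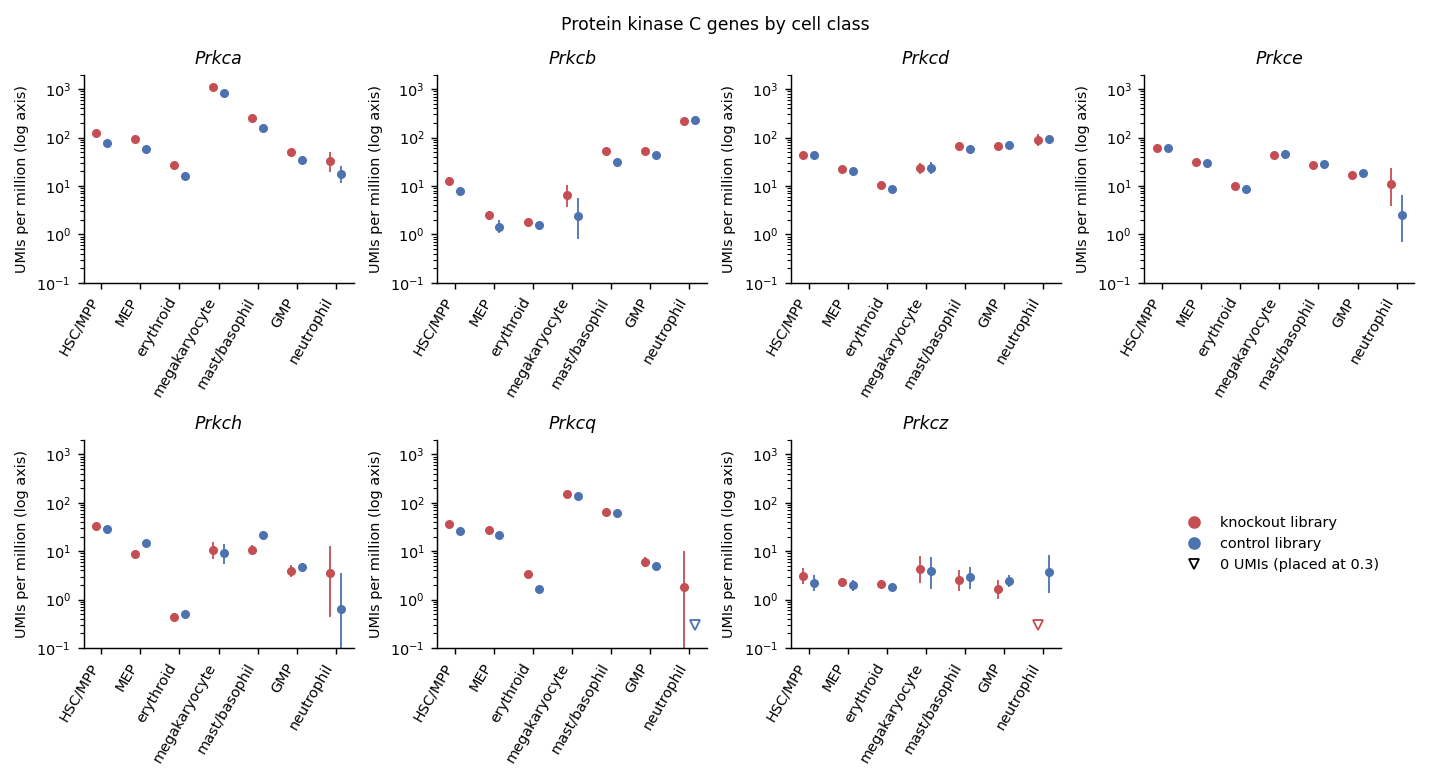
Level of each PKC gene in 7 cell classes (CPM on a log axis), with the knockout library in red and the control library in blue. Points are summed levels, bars are 95% Poisson intervals for counting error (cut at the lower edge of the axis), and open triangles mark 0 UMIs. Prkca is highest in megakaryocytes, at 1095 and 819 CPM, Prkcb in neutrophils, at 216 and 225 CPM, and Prkcz is near 2 CPM in most classes.

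Within classes, the log2 ratio of Prkca was 0.79 (0.72 to 0.85) in erythroid cells, where 1.05% of tested genes were called higher. It was 0.70 (0.58 to 0.82) in mast and basophil cells, where 4.98% were. It was 0.66 (0.58 to 0.75) in MEP, with 1.79% called higher, 0.66 (0.54 to 0.78) in HSC/MPP, with 3.38%, and 0.52 (0.37 to 0.68) in GMP, with 2.16%. At a clustering resolution of 1, Prkca was thus called higher in 5 of the 5 compared classes. The HSC/MPP value depended on how the cells were grouped, since it was 0.43 at a clustering resolution of 0.6, 0.06 at 1.5 and 0.09 with doublets kept. The 10 HSC/MPP markers summed to 885 CPM in knockout and 726 CPM in control HSC/MPP, with 8 higher and 2 lower. At 1.5 the class held 227 and 228 cells, and these markers summed to 1341 and 1254 CPM, with 4 higher and 6 lower. The part of these markers in the Prkca ratio was not tested. The GMP value was 0.46 at a resolution of 1.5, under the threshold. The megakaryocyte markers, which summed to 4474 and 3983 CPM in the megakaryocyte cluster, summed to 113 CPM in knockout and 98.6 CPM in control HSC/MPP, with 8 higher and 1 lower in the knockout. At a resolution of 1.5 they summed to 160 CPM in knockout and 172 CPM in control HSC/MPP, with 3 higher and 6 lower. In MEP they summed to 170 and 138 CPM, with 7 higher and 1 lower, in mast and basophil cells to 114 and 103 CPM, with 6 higher and 2 lower, and in GMP to 38.6 and 33.8 CPM, with 7 higher and 1 lower. Their part in the Prkca ratios was not tested. In erythroid cells, where the ratio of Prkca was 0.79, the marker sums were 32.0 and 31.3 CPM, with 5 higher and 3 lower. In each of these classes but HSC/MPP 1 of the 9 markers was at 0 in both libraries. In the megakaryocyte cluster itself the Prkca log2 ratio was 0.42 (0.33 to 0.51), and in cluster 13 it was 0.36 (0.08 to 0.62).

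**Figure D2:**
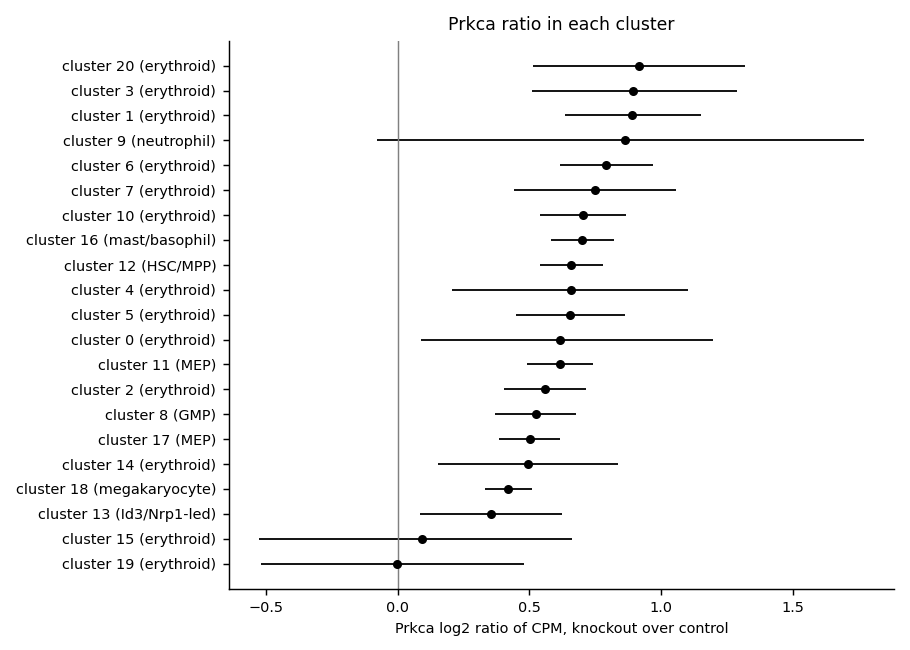
Prkca log2 ratio of CPM, knockout over control, in each of 21 clusters, with 95% intervals for counting error. The ratio is above 0 in 20 clusters, with the interval above 0 in 18, and ranges from 0.00 to 0.92.

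By single cluster, the Prkca ratio was above 0 in 20 of 21 clusters and its interval lay above 0 in 18. The median over clusters was 0.66 and the highest value, in erythroid cluster 20, was 0.92 (0.51 to 1.32). The 3 clusters whose intervals included 0 were the neutrophil cluster and erythroid clusters 15 and 19. Knockout cells made up 17.1% and 11.7% of those erythroid clusters, and the ratios there were 0.09 (-0.52 to 0.66) and 0.00 (-0.52 to 0.48). Knockout cells made up 94.2% of erythroid cluster 0, which gave 0.62 (0.09 to 1.20). The ratio was 0.77 between female cells and 0.83 between male cells of the libraries. Within a library the female over male log2 ratio was -0.09 in the knockout and -0.03 in the control. Prkca overlaps the antisense gene Gm11655, with 85 knockout and 53 control UMIs, and Apoh on the opposite strand, with 29 and 31.

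Prkcb, the isoform known from B cell receptor signalling and from the oxidative burst of neutrophils, was highest in the neutrophil cluster and, among the compared classes, in GMP. It stood at 216 CPM (179 to 258) in knockout and 225 CPM (202 to 249) in control cells of the neutrophil cluster, and at 53.1 and 43.4 CPM in GMP. In erythroid cells it was at 1.76 and 1.59 CPM and in MEP at 2.51 and 1.45 CPM. GMP stood 30.2-fold above erythroid cells in the knockout and 29.98-fold above MEP, the lowest control class. Mast and basophil cells reached 52.3 CPM in the knockout, inside the counting interval of GMP, and 31.1 CPM in the control, below it. HSC/MPP were at 12.9 and 7.92 CPM. GMP held 37.8% of the Prkcb UMIs of the knockout and 44.2% of those of the control library, from 6.07% and 9.03% of the cells.

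Over the whole libraries Prkcb did not differ beyond counting error, at 7.24 CPM in the knockout against 7.53 CPM in the control (log2 ratio -0.06, -0.15 to 0.03), yet its ratio was above 0 in each compared class, in erythroid cells with an interval that included 0 (0.15, -0.08 to 0.38). It was 0.75 (0.48 to 1.02) in mast and basophil cells, where 4.98% of tested genes were called higher. In HSC/MPP, where 3.38% were, it was 0.70 (0.32 to 1.08), and Prkcb was called higher in both classes. In MEP it was 0.80 (0.25 to 1.36), at a level under 5 CPM. In GMP it was 0.29 (0.15 to 0.44), and 0.55 at a resolution of 1.5, 0.57 with doublets kept and 0.54 between female cells. The 9 neutrophil markers summed to 4603 CPM in knockout and 2841 CPM in control GMP, with 6 higher and 2 lower, and their part in the Prkcb ratio was not tested. The single richest cell held 29.2% of the Prkcb UMIs of control HSC/MPP, and without the richest cell of each library that ratio was 1.12. Over the alternatives it ran from 0.53 between male cells to 1.40 with doublets kept. In these HSC/MPP the 7 GMP markers summed to 1244 CPM in the knockout against 2363 CPM in the control, with 0 higher and 7 lower, and their part in the ratio was not tested. With knockout classes weighted to the control class shares, the whole-library ratio of Prkcb was 0.27. Summed over all classes, Prkcb was lower in female than in male cells of both libraries. The female over male log2 ratios were -0.54 (-0.68 to -0.41) in the knockout and -0.78 (-0.96 to -0.60) in the control. Cell classes were not matched between the sexes, and the part of class shares in these ratios was not tested. The knockout over control ratio was 0.33 between female cells and 0.09 between male cells.

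Of the diacylglycerol-dependent isoforms without a calcium requirement, Prkcd, known as a kinase of neutrophils and of cell death pathways, was highest, among the compared classes, in GMP and in mast and basophil cells, and differed little by genotype over the whole libraries. Its levels were 66.0 CPM in knockout and 71.0 CPM in control GMP, 66.8 and 58.3 CPM in mast and basophil cells, 42.9 and 44.0 CPM in HSC/MPP, 22.7 and 20.7 CPM in MEP, and 10.2 and 8.52 CPM in erythroid cells. The neutrophil cluster stood at 90.9 and 91.3 CPM, and cluster 13 at 105 and 76.7 CPM, a log2 ratio of 0.45 (0.23 to 0.66). In the knockout the level of cluster 13 was above those of all 5 compared classes, and in the control its interval overlapped that of GMP. In the knockout, GMP and mast and basophil cells could not be ordered, since their intervals overlapped, whereas in the control GMP were higher. Over the whole libraries the log2 ratio was 0.01 (-0.04 to 0.07). Erythroid cells gave 0.27 (0.17 to 0.36), and the other compared classes lay between -0.10 and 0.20 with intervals that included 0.

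Prkce, an isoform known for its part in macrophage activation and in platelets, was highest in HSC/MPP, at 59.9 CPM (55.2 to 64.8) in the knockout against 59.6 CPM (55.5 to 63.9) in the control. MEP had 30.6 and 29.3 CPM, and mast and basophil cells 26.5 and 27.9 CPM, with overlapping intervals in both libraries. GMP had 16.9 and 18.2 CPM and erythroid cells 10.1 and 8.84 CPM. The megakaryocyte cluster held 43.5 and 45.1 CPM. The whole-library log2 ratio was 0.12 (0.06 to 0.18), the erythroid one 0.20 (0.10 to 0.29), and the others lay between -0.11 and 0.06 with intervals that included 0. In GMP the Prkce ratio was 0.44 between female and -0.39 between male cells, and -0.44 at a resolution of 1.5.

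Prkch, the eta isoform, known from epithelia and lymphocytes, was highest in HSC/MPP in both libraries and lower in the knockout in MEP and in mast and basophil cells. HSC/MPP had 32.8 CPM (29.4 to 36.5) in the knockout against 28.1 CPM (25.3 to 31.1) in the control, while erythroid cells had 0.43 and 0.51 CPM, levels 76.3-fold and 55.4-fold lower. MEP had 8.58 CPM in the knockout against 14.7 CPM in the control, and mast and basophil cells 10.5 and 21.5 CPM. Prkch reached the mean level needed for a call in 3 of the 5 compared classes, all but GMP and erythroid cells, and was called lower in 2 of those 3, with log2 ratios of -0.78 (-0.99 to -0.56) in MEP, where 0.915% of tested genes were called lower, and -1.04 (-1.48 to -0.60) in mast and basophil cells, where 3.81% were. Among all tested genes these were at rank 44 from the lowest of 9074 in MEP and 90 from the lowest of 9663 in mast and basophil cells. Both MEP clusters shared the direction, at -0.65 in cluster 11 and -1.09 in cluster 17. At a resolution of 1.5 the mast and basophil value was -0.42, short of the threshold, over a different set of cells. The class there joined a cluster of 281 knockout and 187 control cells with another of 258 and 298, named by its relative marker level. Other markers moved in the same cells. In MEP the 8 MEP markers summed to 932 CPM in the knockout against 1391 CPM in the control, with 4 higher and 4 lower. The 9 early erythroid markers there summed to 1079 and 1265 CPM, with 0 higher and 9 lower. In mast and basophil cells the MEP markers summed to 1295 CPM in the knockout against 2197 CPM in the control, with 4 higher and 4 lower, and the early erythroid markers to 417 and 560 CPM, with 0 higher and 9 lower. The class's own 9 markers summed to 984 and 1137 CPM, with 3 higher and 6 lower. The part of these markers in the Prkch ratios was not tested. In HSC/MPP the ratio was 0.22 (0.01 to 0.44), not called, turning to -0.20 at a resolution of 1.5 and -0.07 with doublets kept. Cluster 13, not among the compared classes, had 22.8 CPM of Prkch in the knockout against 15.05 CPM in the control, a log2 ratio of 0.60 (0.11 to 1.09) that passed the threshold upward, as did 5.9% of tested genes there. Over the whole libraries Prkch was at 3.73 and 4.42 CPM, a log2 ratio of -0.24 (-0.37 to -0.12), under the mean level needed for a call.

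**Figure D3:**
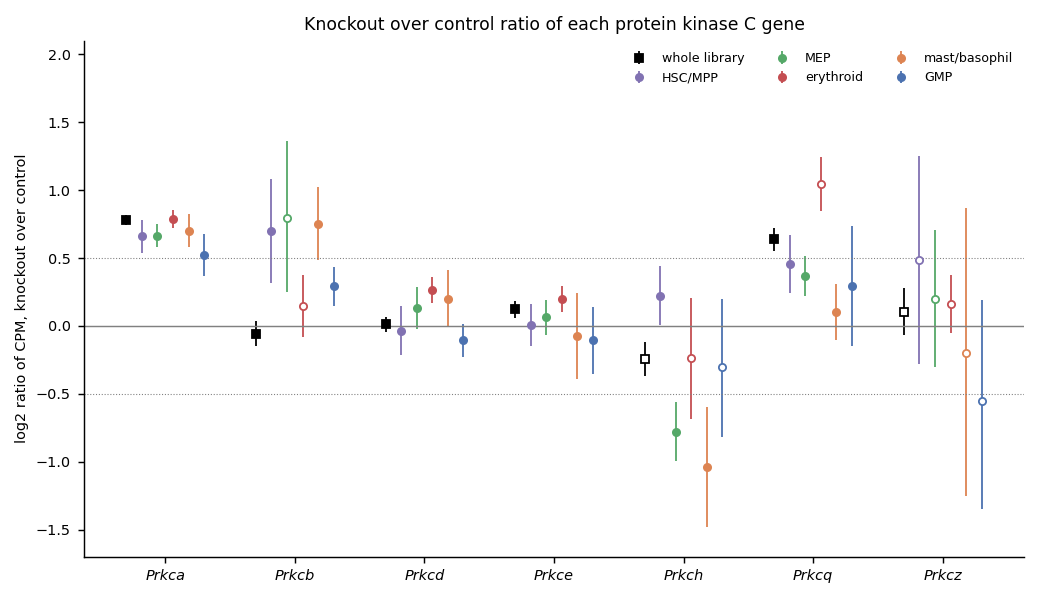
Log2 ratio of CPM, knockout over control, of each PKC gene over the whole libraries (black squares) and in 5 cell classes (coloured circles), with 95% intervals for counting error. Open symbols mark a mean under 5 CPM and dotted lines mark 0.5 and -0.5. Prkca lies above 0.5 in each class shown, and Prkch lies below -0.5 in MEP and in mast and basophil cells.

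Prkcq, the theta isoform of T cell receptor and platelet signalling, shared the class order of Prkca. The megakaryocyte cluster had 150 CPM in the knockout against 135 CPM in the control, mast and basophil cells 65.8 and 61.4 CPM, HSC/MPP 35.9 and 26.2 CPM, MEP 28.1 and 21.7 CPM, GMP 5.95 and 4.84 CPM and erythroid cells 3.39 and 1.64 CPM. Over the whole libraries it stood at 11.5 CPM (11.1 to 11.9) in the knockout against 7.39 CPM (7.07 to 7.72) in the control, a 1.56-fold higher level and a log2 ratio of 0.64 (0.55 to 0.72), at rank 34 of 9020. That ratio was 0.41, no longer a call, with knockout classes weighted to the control class shares. It was 0.55 between female and 0.74 between male cells. Within classes it was called in 0 of the 4 that reached the level, with 0.46 (0.24 to 0.67) in HSC/MPP, 0.37 (0.22 to 0.51) in MEP, 0.30 (-0.15 to 0.74) in GMP and 0.10 (-0.11 to 0.31) in mast and basophil cells. Erythroid cells had the highest class ratio, 1.05 (0.85 to 1.24), at a level under 5 CPM, and it was 0.48 between female and 1.28 between male cells.

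Prkcz, the atypical isoform known for its part in cell polarity, showed no order among classes beyond counting error. Its level ran from 1.68 to 3.14 CPM over the 5 compared classes of the knockout and from 1.85 to 2.96 CPM over those of the control. The intervals of these classes overlapped within each library. The whole-library log2 ratio was 0.10 (-0.07 to 0.28), under the mean level needed for a call, and each class interval included 0.

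Along erythroid development, Prkcd, Prkce, Prkch and Prkcq were lower at the highest than at the lowest alpha-globin share, while Prkca was nearly level. Erythroid cells of both libraries were cut together into 3 equal groups by the share of their UMIs from Hba-a1 and Hba-a2, the alpha-globin genes. Prkca was at 30.4, 25.3 and 25.8 CPM from the lowest to the highest group in the knockout and at 17.1, 15.03 and 15.3 CPM in the control. Its log2 ratio of highest over lowest group was -0.23 (-0.33 to -0.14) and -0.16 (-0.29 to -0.03). Prkcd ran through 12.5, 10.00 and 7.76 CPM in the knockout against 10.1, 8.09 and 7.06 CPM in the control. Prkce ran through 12.7, 10.2 and 6.99 CPM in the knockout against 10.5, 8.70 and 6.86 CPM in the control. Prkcq ran through 5.60, 2.79 and 1.36 CPM in the knockout against 2.89, 1.31 and 0.461 CPM in the control, 4.13-fold and 6.27-fold lower in the highest group than in the lowest. Prkch ran through 0.711, 0.414 and 0.107 CPM in the knockout and 1.01, 0.209 and 0.240 CPM in the control. Its highest group was 6.64-fold and 4.23-fold below its lowest, on 6 to 48 UMIs a group in the knockout and 13 to 72 in the control. For Prkcb and Prkcz the interval of highest over lowest group included 0 in both libraries.

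By genotype, Prkca was called higher in each of the 3 erythroid groups, with log2 ratios of 0.83 (0.72 to 0.93), 0.75 (0.64 to 0.86) and 0.75 (0.63 to 0.88) from the lowest to the highest alpha-globin group. Of all tested genes, 1.35%, 1.52% and 1.29% were called higher there. Prkcd gave 0.31, 0.31 and 0.14 and Prkce 0.27, 0.23 and 0.03 in the same order, and the intervals of the highest group included 0 for both. Prkcq gave 0.96, 1.10 and 1.56 at mean levels under 5 CPM, and in the middle group it was 0.16 between female cells. Prkch, also under 5 CPM, gave -0.51, 0.99 and -1.16, each with an interval that included 0.

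**Figure D4:**
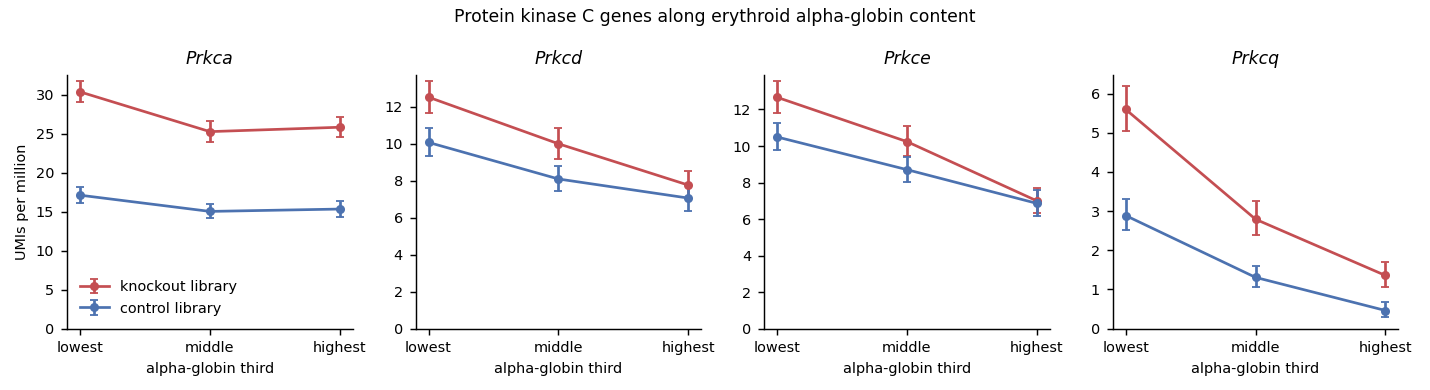
Levels of Prkca, Prkcd, Prkce and Prkcq (CPM, axes from 0) in erythroid cells cut into 3 equal groups by alpha-globin share, for the knockout library in red and the control library in blue, with 95% Poisson intervals. The Prkca lines stay apart and nearly level, at 30.4 to 25.8 and 17.1 to 15.3 CPM, while the other lines fall from the lowest to the highest group.

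The make-up of the family, taken as the share of its summed UMIs that each gene held, differed between classes in both libraries. Prkca held 49.4% (48.8 to 49.96) of family UMIs in the knockout and 38.2% (37.6 to 38.8) in the control, and its share was higher in the knockout in each compared class. It held 82.2% and 78.8% of family UMIs in the megakaryocyte cluster but 9.05% and 5.18% in the neutrophil cluster. Prkcb held 60.8% and 66.0% in the neutrophil cluster, 26.9% and 24.2% in GMP and 3.17% and 4.09% in erythroid cells. Prkcd held 33.4% and 39.5% in GMP against 12.1% and 13.95% in MEP. Prkch held 10.6% and 11.4% in HSC/MPP, and 4.57% in knockout against 9.90% in control MEP. Because shares sum to a whole, a higher Prkca share lowers the other shares where their levels are the same.

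**Figure D5:**
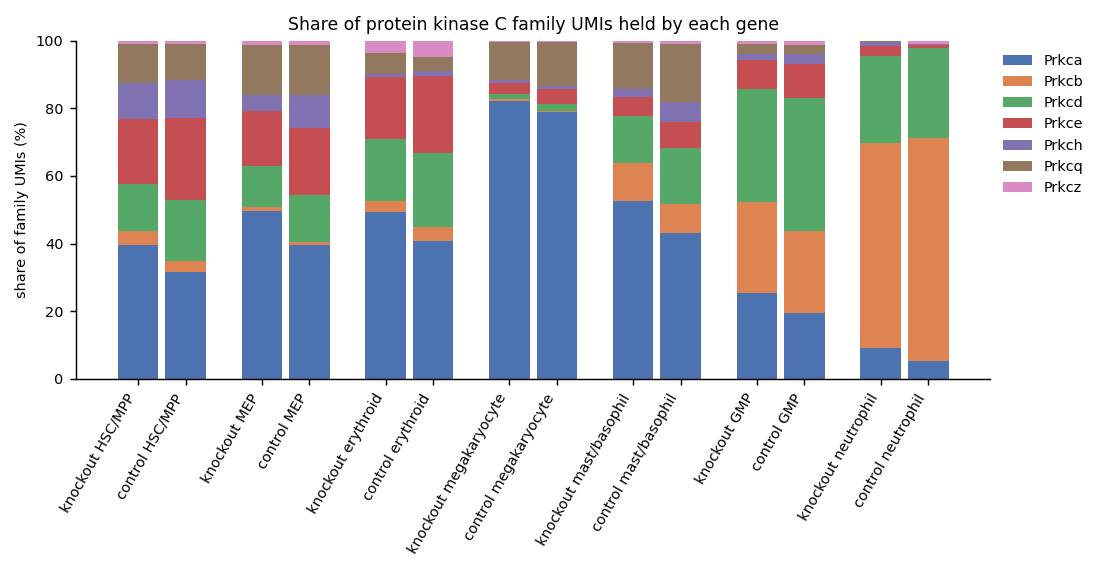
Share of summed PKC family UMIs held by each of the 7 genes (%, stacked to 100) in 7 cell classes, with the knockout and control libraries side by side. Prkca takes 82.2% and 78.8% in megakaryocytes, and Prkcb takes 60.8% and 66.0% in neutrophils.

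The genes most like each member across classes were found by Pearson correlation of log2(CPM + 1) over 14 points, 7 per library, made of the compared classes with the erythroid cells as 3 groups. The points share 2 libraries and their depth, so the values are descriptions. Among 9020 genes, those near Prkca included Plec and Mdga1 (r = 0.97 for each). Prkcb was most like Gxylt1, Gpr141 and Tmem50a, and Prkcd like Arhgap26, Ankrd44 and Arhgap45. Prkce was most like Csnk1g2, Smarcd1 and Ociad2, and Prkch like Ctla2a, Gimap1 and Dok2. Prkcq was most like Lat (r = 0.98), a T cell receptor adaptor, then Fyn and S100a10. Prkcz reached 0.90 with Tmem131l, followed by Ece1 and Med15. Among the members themselves, Prkce and Prkch had r = 0.97, Prkca and Prkcq 0.96, Prkcb and Prkcd 0.92, and Prkcb and Prkce 0.44.

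Of the genes around the family, taken as 8 lists and counted by the same threshold over the whole libraries, 1 of 47 tested (2.13%) was called higher, the substrate gene Plek, and 0 were called lower. Of all tested genes 0.82% were called higher and 1.45% lower, so nothing is read from 1 call. Of the 8 relatives outside the list, 6 reached the mean level, 0 were called, and their median log2 ratio was 0.11 against 0.03 for all tested genes. Among these relatives Prkd1, a kinase of the related protein kinase D family, was at 24.1 CPM in the knockout against 30.5 CPM in the control (-0.34), and Prkci, the other atypical PKC, at 6.29 and 5.66 CPM (0.15). Of 4 tested phospholipase C genes, which make diacylglycerol, 0 were called and the median was 0.11, with Plcb3 at 0.32. In MEP 2 of 6 were called higher, Plcb1 at 1.18 and Plcb3 at 0.59, beside 1.79% of all genes. The direction differed in other classes. In GMP 1 of 6, Plcb1, was called lower, beside 1.81% of all genes, and 0 were called higher. In mast and basophil cells 1 of 5, Plcg2, was called higher, beside 4.98%, and the other 4 were below 0. Of 4 tested diacylglycerol kinases, which remove the lipid, 0 were called, and Dgkd was at 0.14. Of 3 tested genes for other diacylglycerol receptors 0 were called, with Chn2 at 0.27 and Rasgrp2 at -0.24. In HSC/MPP 3 of 6 of those receptors were called higher, beside 3.38% of all genes. Rasgrp4 had the highest ratio among them, 8.44 against 3.51 CPM (1.26, 0.74 to 1.81). These class results were picked after their values were seen. Over all 8 lists, 8 of 55 genes were called higher and 1 lower in HSC/MPP, beside 3.38% and 1.3% of all genes. The counts were 7 and 2 of 54 in mast and basophil cells, beside 4.98% and 3.81%. In MEP they were 5 and 1 of 49, beside 1.79% and 0.915%. In GMP they were 2 and 2 of 50, beside 2.16% and 1.81%. In erythroid cells they were 1 and 0 of 37, beside 1.05% and 0.913%. No list gene is given at another clustering resolution, and in HSC/MPP the Prkca ratio was 0.06 at 1.5.

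Of 7 tested PKC substrates, 1 was called over the whole libraries. Plek, pleckstrin, the main PKC substrate of platelets, was at 21.3 CPM in the knockout against 14.53 CPM in the control (0.55, 0.49 to 0.61), and in MEP at 45.1 and 23.3 CPM (0.95). The part of the megakaryocyte marker sums given above in the Plek ratios was not tested. Marcks, a membrane and actin-binding substrate, was at 5.66 and 7.84 CPM (-0.47), and in mast and basophil cells at 14.8 and 41.4 CPM (-1.49, -1.84 to -1.15). Add2, the beta-adducin of the red cell skeleton, was at 69.9 and 93.8 CPM (-0.42). Of 9 tested genes for PKC priming, dephosphorylation and anchoring 0 were called, with a median of 0.04, and Rictor was at 0.14. Of 8 tested genes of the CARD-BCL10-MALT1 and NF-kB arm 0 were called, with a median of 0.04, and Rela was at -0.14. Of 6 tested genes for IP3 receptors and store-operated calcium entry 0 were called, with a median of 0.12, and Orai2 was at 0.26.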

How the data were processed

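Lineage-negative Kit-positive fetal liver cells were measured in 2 libraries, 1 per genotype, with the 10x Genomics 3′ kit, per the labels' protocols. The deposited values are whole UMI counts per gene and barcode with no normalization. The authors used Cell Ranger 7.2.0 and mm10, per the submitters' processing notes, and the sources used here do not say whether intronic reads entered the counts. Barcodes with under 1000 genes, under 2000 UMIs or over 10% mitochondrial UMIs were dropped, which removed 288 knockout and 299 control barcodes. Doublets were called per library with Scrublet in scanpy 1.11.5 (expected rate 6%), and 244 knockout (3.49%) and 240 control (3.38%) cells were removed, as were 2 and 4 cells with at least 1% of UMIs from hepatocyte markers, a step added after seeing the data.

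Both libraries were clustered together (3000 variable genes, 30 principal components, 15 neighbours, Leiden resolution 1). Left out were the PKC genes and their pathway lists, Brd9, Xist, Tsix, and Y-linked, cell-cycle, mitochondrial and ribosomal protein genes. Other X-linked genes were not left out. Clusters were named from marker lists, and classes were compared with at least 150 cells in each library. Most erythroid clusters had no marker among their top 10 genes and were named by their relative marker level. UMIs were summed per class and library and scaled to CPM. Exact Poisson, Clopper-Pearson and conditional exact intervals at 95% cover counting error only. Calls needed a log2 ratio past 0.5 and a mean of at least 5 CPM. Cells were female with at least 3 Xist UMIs and at most 1 Y-linked UMI, and male with at most 1 Xist UMI. The text names all 7 members and Brd9, the 3 genes most like each member (1 of those of Prkca is not reported here), and up to 4 genes per pathway list with the largest whole-library ratio, while list genes named in a class were chosen after their values were seen. On simulated data of 9017 genes for the whole-library comparison, the interval held the true ratio for 95.1% of 1000 unchanged genes, 90% of 50 genes changed 0.25-fold, 96% at 0.5-fold, 94% at 2-fold and 98% at 4-fold. The simulated counts were Poisson draws, the model that the intervals assume, with no variation between cells or libraries. They check the calculation only and cannot show how the intervals hold on real counts. Members and lists were chosen with earlier results of these data known. Alternatives covered resolution, doublets, filters, scaling, sex, class weights, minimum level and single cells or clusters left out.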

Additional observations from a re-analysis of the deposited data

Results flagged for a closer look

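Prkch had counting intervals on opposite sides of 0 in different cell classes. Its log2 ratio of knockout over control was 0.22 in stem and multipotent progenitors, with an interval from 0.01 to 0.44 and short of the threshold for a call, against -0.78 in megakaryocyte-erythroid progenitors and -1.04 in mast and basophil cells. The difference between the classes was not tested, since each genotype had 1 library. The value in stem and multipotent progenitors did not keep its sign. It was -0.07 with doublets kept and -0.20 at a clustering resolution of 1.5. At that resolution the value was -0.91 in megakaryocyte-erythroid progenitors. It was -0.42 in mast and basophil cells, a class that there took in a further cluster.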

How the results depend on the processing

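Of 70 whole-library ratios under alternatives, 58 kept within counting error of the reported value and 12 moved, and no called ratio changed sign, while Prkcb, not called, turned from -0.06 to above 0 in 3 of them. With knockout classes weighted to the control class shares, the ratio was 0.63 for Prkca, 0.27 for Prkcb, 0.10 for Prkcd and 0.41 for Prkcq. Between male cells it was 0.83 for Prkca, 0.089 for Prkcb, -0.10 for Prkch and 0.74 for Prkcq, and between female cells 0.33 for Prkcb, 0.11 for Prkcd, 0.55 for Prkcq and -0.070 for Prkcz. Over all alternatives the range was 0.63 to 0.83 for Prkca and 0.41 to 0.74 for Prkcq. Prkca was called higher in 3 classes at a resolution of 0.6, where no cluster was named granulocyte-monocyte progenitor, and in 3 at 1.5, against 5. Prkch was called lower in 1 class at a resolution of 1.5, against 2, and Prkcq higher in 1 class between male cells, against 0. With a mean of at least 20 CPM, 21 genes were called higher and 51 lower over the whole libraries, against 74 and 131. The causes were not tested beyond the construction of each alternative. Of the class and erythroid group ratios 340 stayed within counting error and 43 moved. Of the class levels at resolutions of 0.6 and 1.5, 68 stayed within counting error and 58 moved. Median-of-ratios scaling shifted all genes by 0.03. Female mast and basophil cells, 38 in the control, were too few for a value. No paired analysis was possible because each genotype had 1 library. Depth limits Prkcb, Prkch, Prkcq and Prkcz in erythroid cells, at under 5 CPM.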
